A study of Mus musculus with 12 samples.

Results

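A set of 10 neuropeptide precursor genes was followed in RNA-seq libraries of the newborn mouse visual thalamus: *Cck*, *Gal*, *Penk*, *Pdyn*, *Tac1*, *Nts*, *Adcyap1*, *Vip*, *Cartpt* and *Crh*. They were taken by symbol from the count table of each mouse line and make up 10 of the 24480 genes in each table. The set was chosen with the changes in the mutants already known, so its changes in the mutants are given as a description, without p-values. The tissue was the dissected dorsolateral geniculate nucleus (dLGN), the thalamic nucleus that relays retinal input to the visual cortex, at postnatal day 0 (P0). *Sox2* mutants (Sox2flox/flox;Ror-alphaCre) were compared with Sox2flox/flox or Sox2flox/+ controls without Cre. *Nr2f1* mutants (Nr2f1 flox/flox;Ror-alphaCre) were compared with their own controls, whose label names both the Ror-alphaCre genotype and "no Cre" and which the study describes as Nr2f1 flox/flox or Nr2f1 flox/+ littermates without Cre. Each of the 4 groups had 3 libraries, each from a pool of 3 animals, and the controls carried floxed alleles too. *Sox2* encodes a SOX-family transcription factor and *Nr2f1* an orphan nuclear receptor. The Cre is expressed from the *Rora* locus in postmitotic cells of the sensory thalamus, so cells of the dissected piece that do not use *Rora* keep the floxed gene.

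Neuropeptides are made as longer precursors, cut by proprotein convertases inside dense-core vesicles, trimmed and often amidated, and released to act on G-protein-coupled receptors. *Cck*, the precursor of cholecystokinin, is the peptide gene best known from thalamic relay neurons that project to the cortex. The opioid, tachykinin and neurotensin precursors are better known from GABAergic and hypothalamic neurons.

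Many neuropeptide promoters carry a cyclic AMP response element, the site read by CREB-family factors, so the 250 bases before the start site of each gene were searched for its core CGTCA on both strands. RefSeq promoter sequences (GRCm38.p6, the same assembly as the mm10 build named for the data) were found for 8 of the 10 genes, all but *Penk* and *Crh*. CGTCA stood in 6 of the 8, against 17.8% of all 32851 promoters, and the full palindrome TGACGTCA, which contains it, in 1 of the 8 (*Cartpt*), against 1.55% of all. The core letters of a SOX site, ACAAAG or ACAATG, stood in 2 of the 8 (*Pdyn* and *Nts*), against 25.2% of all, and the nuclear-receptor core AGGTCA in 0 of the 8, against 14.0% of all. The *Cck* promoter is shown whole because *Cck* is the gene the results turn on, and a 29-base window is shown for the other genes with a match, with the CGTCA core, or its complement TGACG, in capitals.
*Cck* (chr9:121495695-121495944, minus strand): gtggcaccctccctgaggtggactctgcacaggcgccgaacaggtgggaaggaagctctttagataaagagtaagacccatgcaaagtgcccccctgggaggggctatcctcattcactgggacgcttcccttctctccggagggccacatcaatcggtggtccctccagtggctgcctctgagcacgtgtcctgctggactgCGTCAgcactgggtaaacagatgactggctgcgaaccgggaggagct
*Cartpt* (chr13:99900776-99900804, minus strand): ggcgggcattgaCGTCAaacggcagcgga
*Tac1* (chr6:7555006-7555034, plus strand): gctctacaggctCGTCAcgcctgagataa
*Adcyap1* (chr17:93198914-93198942, plus strand): ggactaggatgcTGACGtcttttactgat
*Nts* (chr10:102490568-102490596, minus strand): attagggaagatCGTCActttccatcaag
*Vip* (chr10:5639127-5639155, plus strand): ggatcactactgTGACGtctttcggggag
In *Cck* the last base of the core lies 43 bases before the start site. The *Cartpt* and *Adcyap1* windows lie inside the annotated span of their genes, before the start site used here. These matches are a description of the letters in the windows and carry no measurement of binding.

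Libraries held between 39293470 and 50095336 estimated counts. The targeted genes followed the labels. *Sox2* was at 361, 363 and 382 CPM (counts scaled by library size, here after TMM normalization within the line) in the *Sox2* controls. In the *Sox2* mutants it was at 116, 150 and 152. *Nr2f1* was at 311, 370 and 380 in the *Nr2f1* controls. In the *Nr2f1* mutants MUT_A, MUT_B and MUT_C it was at 105, 151 and 101. Each gene was also lower on average in the other line. *Sox2* went from 356 CPM in the *Nr2f1* controls to 243 in the mutants, without overlap. Its log2 fold change was -0.55 ± 0.09 (SE), with an edgeR false discovery rate of 0.00635. That rate stayed below 0.01 under 7 of 13 other settings. *Nr2f1* went from 332 CPM in the *Sox2* controls to 254 in the mutants, with overlap (-0.39 ± 0.13, rate 0.0559). How this bears on the peptide genes was not tested. The thalamic origin of the tissue was checked on 9 genes of thalamic glutamatergic neurons, among them *Slc17a6*, *Tcf7l2* and *Lef1*, all 9 of which were detected in every library, with a summed level of 1734 to 2220 CPM in the *Sox2* controls and 2089 to 2337 in the *Nr2f1* controls. The list was one of thalamic neurons in general, so it did not check the dLGN against other thalamic nuclei. Some libraries stood apart. The *Sox2* mutant library MUT_1 had a summed level of 195 CPM over 9 pallial and hippocampal markers, against 33.9 to 70.4 in its controls and 61.6 and 116 in the other mutants, and of 46.5 CPM over 9 hypothalamic markers, against 11.4 to 18.1 in its controls, 10.8 in MUT_3 and 27.9 in MUT_4, which also lay above every control. On 5 meningeal fibroblast markers MUT_3 summed to 3118 CPM, against 1375 and 1635 in the other *Sox2* mutants. The *Sox2* control CTRL_3 summed to 1796 CPM, against 899 and 895 in the other *Sox2* controls. The *Nr2f1* mutant library MUT_B kept the most *Nr2f1* RNA of its group. The sex of the pooled pups also differed between libraries, with *Xist* at 0.19 CPM in the *Sox2* control CTRL_2, at 0.46 in the *Sox2* mutant MUT_1 and at 0.28 in the *Nr2f1* control CTRL_E, and with the summed level of 4 male-specific genes at 0 in the *Nr2f1* mutant MUT_A. In the *Nr2f1* line this sum was 43.6, 69.1 and 97.4 CPM in the controls and 0, 32.5 and 52.1 in the mutants. Sex and genotype were thus partly confounded in that line. In bulk tissue, fewer cells that make a peptide and less of its RNA per cell cannot be told apart.

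*Cck* stood far above the other peptide genes in the controls. Divided by the length of the longest annotated transcript, its level was 210 ± 16.5 CPM per kb (SD, n = 3) in the *Sox2* controls and 181 ± 12.3 in the *Nr2f1* controls, which was 90.9% and 91.0% of the summed per-length level of the 10 genes. On this scale it ranked at 169 of 18099 genes above 0 in the *Sox2* controls and at 205 of 18168 in the *Nr2f1* controls. *Gal*, the galanin precursor, came next at 12.3 ± 0.91 and 7.91 ± 1.70 CPM per kb. *Penk*, which encodes the enkephalins, followed at 5.73 ± 1.09 and 7.31 ± 0.44, and the ranges of *Gal* and *Penk* overlapped in the *Nr2f1* controls (6.18 to 9.57 and 6.93 to 7.80) but not in the *Sox2* controls.

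The remaining 7 genes were all below 1 CPM per kb on average in both control groups. *Nts*, *Tac1* and *Adcyap1* lay between 0.57 and 0.86 CPM per kb and exchanged places between the control groups, with overlapping ranges over the libraries of each group. *Pdyn* lay just under them at 0.41 ± 0.14 and 0.51 ± 0.05. *Cartpt*, *Vip* and *Crh* were at 0.13 CPM per kb or lower, each from at most 18 reads in any control library, and their order was not resolved at this depth. The libraries of the 2 control groups were compared as well, a contrast that the choice of the genes did not use. None of the 7 peptide genes tested differed between *Nr2f1* and *Sox2* controls at a false discovery rate (FDR, Benjamini-Hochberg, edgeR quasi-likelihood test) below 0.01, where 0.342% of all genes did. DESeq2 called 0 of the peptide genes, where it called 344 over all genes. At an unadjusted p under 0.05 in edgeR there were 3, and the share of all genes at that p is not given here. These 3 were *Gal*, with a log2 difference of -0.61 ± 0.16 (SE) and FDR = 0.095, *Penk*, with 0.38 ± 0.14 and FDR = 0.216, and *Cck*, with -0.19 ± 0.08 and FDR = 0.265.

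**Figure D1:**
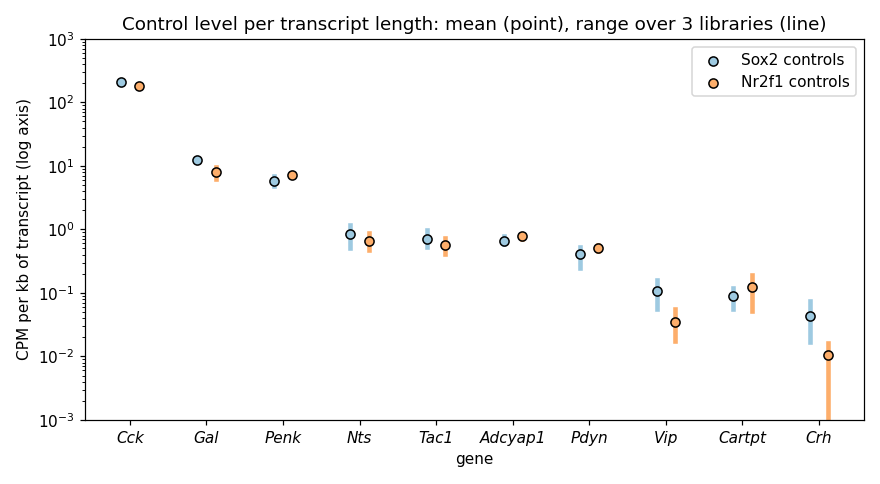
Level of the 10 peptide genes in the 3 libraries of each control group, as CPM per kb of the longest transcript on a log axis, with points for means and lines from the lowest to the highest library. *Cck* stands at about 200 CPM per kb in both control groups and *Crh* is lowest, its line in the *Nr2f1* controls running off the axis because 1 library had no reads.

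In counts, the *Sox2* fit called 1 peptide gene lower and 2 higher of the 8 that passed the filter on low counts. The call is an FDR below 0.01 over 15602 genes, of which 8.08% were called, 3.90% higher and 4.19% lower. The *Nr2f1* fit called 1 lower and 0 higher of 7, against 2.54% of 15600 genes called, 1.22% higher and 1.32% lower. Groups did not overlap for 6 of the 8 genes of the *Sox2* fit (37.9% of all genes tested) and for 3 of the 7 of the *Nr2f1* fit (28.6%). Because the genes were selected on these contrasts, nothing is read from their shares.

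*Cck* was the one peptide gene called in both mutants. It lies at chr9:121489824-121495694 on the minus strand (GRCm38.p6). In the *Sox2* line its level was 158, 163 and 183 CPM in the 3 control libraries and 63.4, 86.8 and 75.6 CPM in the mutant libraries MUT_1, MUT_3 and MUT_4. The groups did not overlap, and the mutants stood at 44.8% of the control level, a log2 fold change of -1.16 ± 0.11 (SE). *Nr2f1* controls were at 154, 134 and 146 CPM and the mutants MUT_A, MUT_B and MUT_C at 18.2, 38.7 and 19.9 CPM. The mutants were at 17.7% of the control level, a log2 fold change of -2.50 ± 0.24, and MUT_B, the mutant library with the most *Nr2f1* RNA, also had the most *Cck*. Of the *Nr2f1* mutants, MUT_B also had the highest summed level of thalamic glutamatergic markers, at 2315 CPM. Its sums of GABAergic and meningeal fibroblast markers were the lowest, at 105 and 994 CPM. How any of these relates to *Cck* was not tested. With MUT_B left out, the log2 fold change was -2.92. Of the genes called lower, 127 of 653 fell further than *Cck* in the *Sox2* mutants and 2 of 206 in the *Nr2f1* mutants. *Cck* stayed on its side of the threshold under all 14 other settings tried in the *Sox2* line (log2 fold change -1.27 to -1.04) and all 13 in the *Nr2f1* line (-2.92 to -2.27). Its share of the summed per-length level of the 10 genes was 78.4% in the *Sox2* mutants and 62.3% in the *Nr2f1* mutants.

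**Figure D2:**
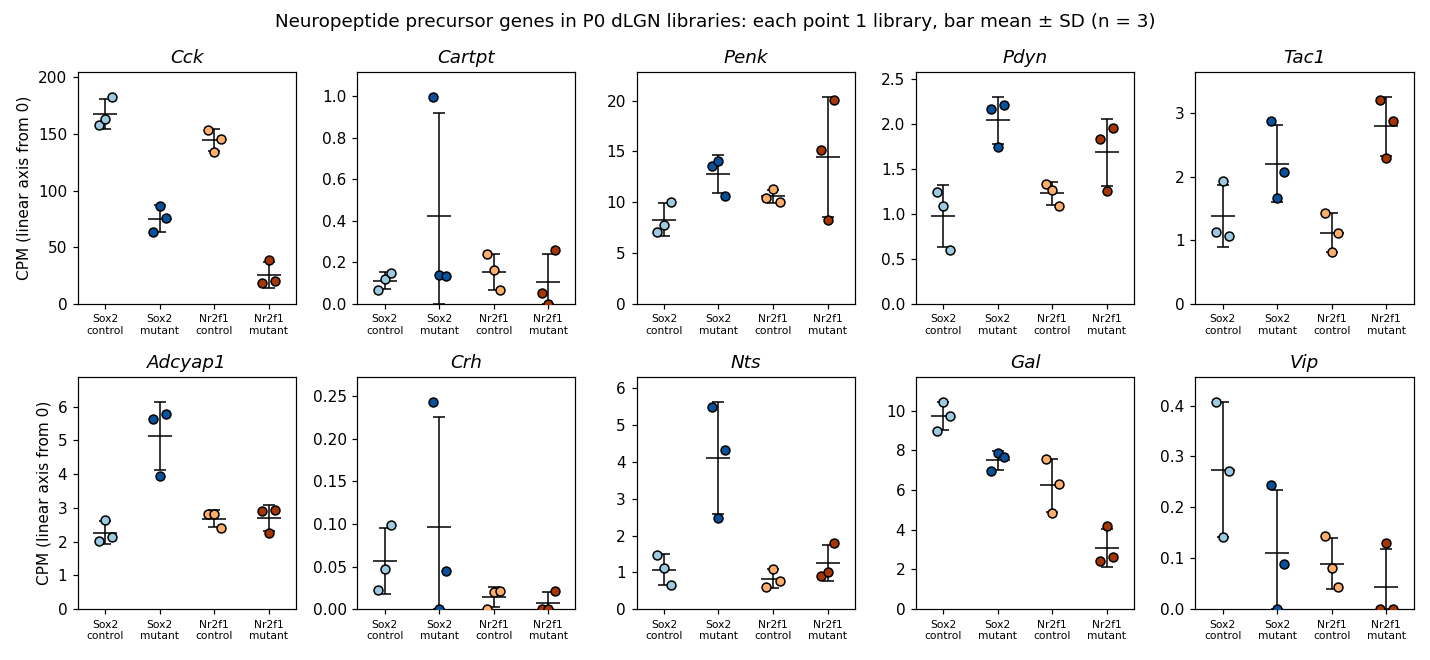
Level of each peptide gene in CPM (linear axes from 0) in the 3 libraries of each group, with points for libraries and bars for the mean ± SD, cut at 0 where the SD exceeds the mean. *Cck* is lower in every mutant library than in any control library, while *Nts* and *Adcyap1* are higher in the 3 *Sox2* mutants and *Cartpt* and *Crh* have 1 high *Sox2* mutant library, MUT_1.

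*Gal*, like *Cck*, had lower values in both mutants, with smaller log2 fold changes than *Cck*. In the *Sox2* line the controls were at 9.0, 10.4 and 9.73 CPM and the mutants at 6.96, 7.85 and 7.68 CPM. These groups did not overlap, and the log2 fold change was -0.37 ± 0.12, which was not called. *Nr2f1* controls were at 7.54, 4.87 and 6.28 CPM and the mutants at 2.43, 4.20 and 2.60 CPM, with MUT_B again highest. The log2 fold change was -1.01 ± 0.23, also not called, and the groups did not overlap. *Gal* was called there under 3 of 13 other settings: DESeq2, 1 fit over all libraries and leaving out MUT_B. The study, at the same FDR threshold, lists *Gal* among the genes most downregulated in its *Nr2f1* mutants.

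*Nts* and *Adcyap1* were called higher in the *Sox2* mutants. *Nts*, which encodes neurotensin and neuromedin N, was at 1.47, 1.11 and 0.64 CPM in the *Sox2* controls and at 5.50, 2.47 and 4.34 CPM in the mutants, a log2 fold change of 1.92 ± 0.35. The *Nts* levels of MUT_1, MUT_4 and MUT_3 had the same order as their pallial and hypothalamic marker sums. The GABAergic, telencephalic interneuron and choroid plexus sums had this order too, and the other cell type lists did not. How any of these lists relates to *Nts* was not tested. Without MUT_1 the log2 fold change was 1.66 and no longer called. With *Nr2f1* targeted, *Nts* was at 0.59, 1.10 and 0.76 CPM in the controls and 0.90, 1.02 and 1.81 CPM in the mutants. The *Nr2f1* groups overlapped, and the log2 fold change was 0.60 ± 0.35.

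*Adcyap1*, the precursor of the peptide PACAP, was at 2.01, 2.65 and 2.12 CPM in the *Sox2* controls and 5.63, 3.96 and 5.80 CPM in the mutants. The groups did not overlap and the log2 fold change was 1.18 ± 0.20, or 1.11 and not called without MUT_1. Its level in the *Nr2f1* line was 2.83, 2.83 and 2.39 CPM in the controls and 2.91, 2.25 and 2.93 CPM in the mutants. Those groups overlapped, with a log2 fold change of 0.01 ± 0.18. The calls of *Nts* and *Adcyap1* in the *Sox2* line were also lost when CTRL_1, CTRL_2 or MUT_4 was left out, or when the level of male-specific genes was added to the model, with log2 fold changes of 1.82 to 2.22 for *Nts* and 1.08 to 1.31 for *Adcyap1* in these fits.

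The opioid precursors had higher mean values in both mutants without being called. *Penk* was at 7.03, 7.79 and 10.1 CPM in the *Sox2* controls and 13.6, 14.1 and 10.6 CPM in the mutants, a log2 fold change of 0.62 ± 0.16 between groups that did not overlap. It was called there under 3 of 14 other settings: DESeq2, leaving out CTRL_3 and a replicate block described at the end. In the *Nr2f1* line it was at 10.4, 11.3 and 10.05 CPM in the controls and 15.2, 8.26 and 20.0 CPM in the mutants MUT_A, MUT_B and MUT_C, a log2 fold change of 0.45 ± 0.25. MUT_B lay below the controls and the other *Nr2f1* mutant libraries above them, and the log2 fold change was 0.73 with a call when MUT_B was left out and 0.14 without a call when MUT_C was. *Pdyn*, which encodes the dynorphins, was at 1.24, 1.09 and 0.59 CPM in the *Sox2* controls and 2.17, 1.74 and 2.21 CPM in the mutants, a log2 fold change of 1.06 ± 0.29 without overlap. It was called there under 1 of 14 other settings, DESeq2. Its *Nr2f1* line values were 1.33, 1.26 and 1.09 CPM in the controls and 1.83, 1.26 and 1.96 CPM in the mutants, a log2 fold change of 0.45 ± 0.24 between overlapping groups.

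*Tac1*, the precursor of substance P and neurokinin A, had its larger difference in the *Nr2f1* line. There it was at 1.43, 0.81 and 1.11 CPM in the controls and 3.21, 2.30 and 2.88 CPM in the mutants, without overlap and with a log2 fold change of 1.33 ± 0.25 that was not called. Under 3 of 13 other settings it was called: DESeq2, no filter on low counts and leaving out MUT_B. In the *Sox2* line it was at 1.13, 1.94 and 1.06 CPM in the controls and 2.87, 1.67 and 2.08 CPM in the mutants, with overlap and a log2 fold change of 0.68 ± 0.30.

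*Vip*, *Cartpt* and *Crh* were close to the limit of detection. *Vip*, the vasoactive intestinal peptide precursor, had 18, 6 and 11 counts in the *Sox2* controls and 10, 0 and 4 in the mutants, a log2 fold change of -1.32 ± 0.80 that was not called. With 1 library left out this value ran from -2.53 (without MUT_1) to -0.74 (without MUT_3). The *Nr2f1* controls had 6, 4 and 2 counts of *Vip* and the mutants 0, 6 and 0. *Cartpt*, the precursor of the CART peptides, had 3, 5 and 6 counts in the *Sox2* controls, 41 in MUT_1 and 6 in each of the other *Sox2* mutant libraries. *Crh*, the corticotropin-releasing hormone gene, had 10 counts in MUT_1 and at most 4 in any other library. Apart from MUT_1, no library held more than 12 counts of *Cartpt*. A count of 0 allows up to 3 counts, or 0.0645 to 0.0753 CPM in the *Nr2f1* mutant libraries, as far as counting error goes. *Cartpt* and *Crh* did not pass the filter on low counts in either line, and *Vip* passed it in the *Sox2* line alone.

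**Figure D3:**
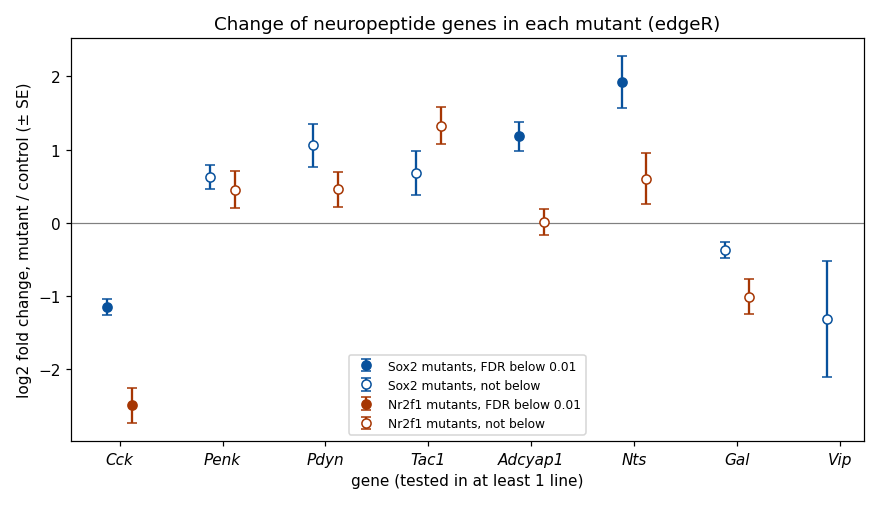
Log2 fold change of each peptide gene between mutants and their own controls, with bars for the SE of the edgeR fit (3 against 3 libraries), blue for the *Sox2* line and brown for the *Nr2f1* line, filled where the FDR is below 0.01. *Cck* is filled in both lines, at -1.16 and -2.50, and *Nts* and *Adcyap1* are filled for the *Sox2* line.

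The changes of the lines were set against each other in 1 fit over all 12 libraries, as the log2 change in the *Sox2* mutants minus that in the *Nr2f1* mutants. The difference was 1.34 ± 0.30 (SE) for *Cck*, which stood lower in the *Nr2f1* mutants, 1.18 ± 0.26 for *Adcyap1*, 1.33 ± 0.54 for *Nts*, 0.64 ± 0.27 for *Gal* and -0.64 ± 0.41 for *Tac1*. None of the 9 peptide genes in that fit was called, against 1.44% of all genes. At an unadjusted p under 0.05 in edgeR there were 4, and the share of all genes at that p is not given here. DESeq2 called 1 peptide gene, *Adcyap1*, where it called 544 over all genes. This fit is built from the contrasts the genes were selected on, so its values too are a description.

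Several of these values moved together with markers of other cells, and their part in the results was not tested. The summed level of 10 GABAergic markers of the prethalamus and its neighbours (*Gad1*, *Gad2*, *Slc32a1*, Dlx genes and others, none at 0) was 80.3 to 128 CPM in the *Sox2* controls and 149 to 211 in the mutants, with 0 of the 10 called. In the *Nr2f1* line it was 111 to 118 CPM in the controls and 162, 105 and 214 in MUT_A, MUT_B and MUT_C, the same order as *Penk*. Lists of other cells had this order too: meningeal fibroblast markers summed to 1873, 994 and 2300 CPM (687 to 1044 in the controls), endothelial markers to 293, 216 and 312, microglial markers to 116, 98.7 and 129 and midbrain-type interneuron markers to 113, 83.7 and 136. Microglial markers summed to 98.7 to 113 CPM in the *Sox2* controls and 215 to 248 in the mutants, with 7 of 8 called higher, and 4 of 6 astrocyte markers were called higher. Of the 9 thalamic glutamatergic markers, 4 were called lower in the *Sox2* mutants (*Slc17a6*, *Lef1*, *Lhx9* and *Rora*) and 1 higher (*Gbx2*), and their summed level was 1583 to 1607 CPM. *Rora*, the gene that carries the Cre, was at 335 ± 33.6 CPM in the *Sox2* controls and 85.7 ± 12.7 in the mutants. The *Nr2f1* mutants carry the same Cre, and there *Rora* was at 319 ± 52.4 CPM against 380 ± 34.9 in the controls. That log2 fold change, -0.25 ± 0.11, was not called. In the *Nr2f1* mutants the same 9 markers summed to 1981 to 2315 CPM, with 1 called lower and 1 higher.

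**Figure D4:**
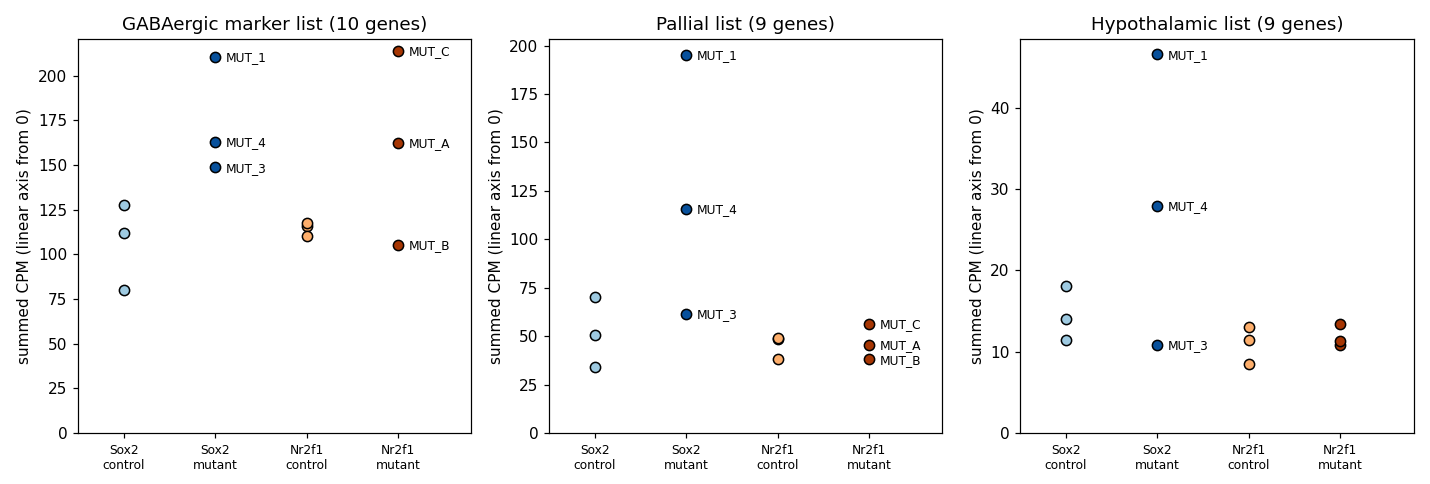
Summed CPM of 3 marker lists in each library, with points for libraries and names beside the mutant libraries (in the hypothalamic panel beside the *Sox2* mutants). MUT_1 is highest on the pallial list at 195 CPM and on the hypothalamic list at 46.5, and the GABAergic list orders the *Nr2f1* mutants as MUT_B, MUT_A and MUT_C, at 105, 162 and 214.

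The receptors of these peptides and of closely related ones, 19 genes, were examined next. Of the 15 tested in the *Sox2* line, 2 rose and 1 fell (edgeR FDR below 0.01, where 8.08% of all genes were called), and the median log2 fold change was 0.74, against 0.0005 over all genes tested. *Adcyap1r1*, which encodes the PACAP receptor PAC1, rose from 222 ± 6.93 to 371 ± 17.0 CPM (log2 fold change 0.74 ± 0.07, FDR = 0.00013). *Vipr2*, which encodes the VPAC2 receptor for VIP and PACAP, fell from 5.01 ± 0.86 to 1.85 ± 0.35 CPM (log2 fold change -1.44 ± 0.21, FDR = 0.00161), a call that was lost without CTRL_1 or without CTRL_2 (FDR up to 0.0112, log2 fold change -1.57 to -1.30 over all 14 other settings). *Tacr3*, the neurokinin B receptor gene, rose from 1.60 ± 0.18 to 3.09 ± 0.39 CPM (log2 fold change 0.94 ± 0.20) with FDR = 0.00967, close to the threshold, and its call held under 6 of 14 other settings. The other receptor genes named for a high CPM in the controls did not pass: *Sort1*, the neurotensin-binding sortilin, had a log2 fold change of -0.22 ± 0.08 (FDR = 0.0785) and *Crhr1*, the main CRH receptor, of -0.20 ± 0.09 (FDR = 0.145).

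Among *Nr2f1* mutants 0 of 15 receptors passed the threshold in edgeR, where 2.54% of all genes did, with a median log2 fold change of 0.36, against 0.01 over all genes. At an unadjusted p under 0.05 in edgeR there were 8, and the share of all genes at that p is not given here. DESeq2 called 2 receptors, where it called 1112 over all genes. *Adcyap1r1* was at 190 ± 11.4 CPM in the controls and 219 ± 7.50 in the mutants (log2 fold change 0.20 ± 0.06, FDR = 0.0598), and *Vipr2* at 4.32 ± 0.40 and 6.33 ± 0.93 CPM (0.55 ± 0.15, FDR = 0.0529). The difference between the lines passed the threshold for both genes. *Crhr1* was at 36.1 ± 3.31 and 23.0 ± 4.98 CPM (log2 fold change -0.65 ± 0.14, FDR = 0.026) and *Sort1* at 177 ± 4.48 and 158 ± 2.10 CPM (-0.16 ± 0.04, FDR = 0.0614). The receptors for *Cck* itself were singled out after their values were seen. *Cckbr* was at 1.11 ± 0.15 and 2.09 ± 0.76 CPM in *Sox2* controls and mutants (log2 fold change 0.91 ± 0.30, FDR = 0.0593) and 1.41 ± 0.37 and 1.91 ± 0.43 CPM in *Nr2f1* controls and mutants (0.44 ± 0.26, FDR = 0.344), and *Cckar* was below 0.6 CPM in every library.

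**Figure D5:**
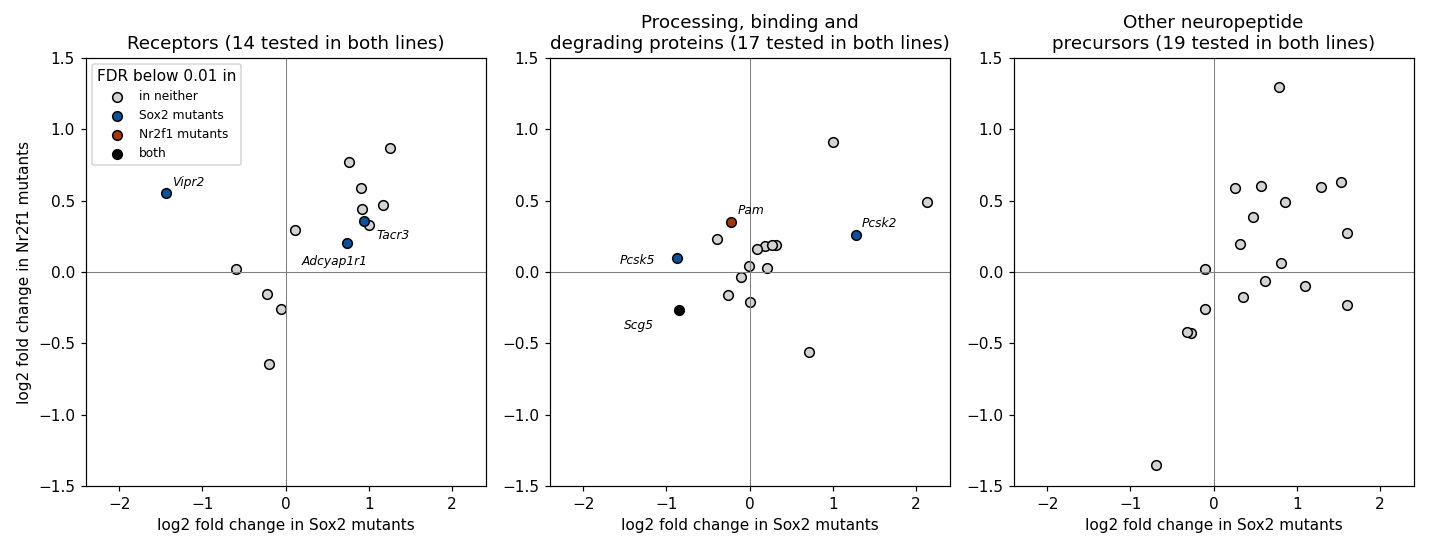
Log2 fold change in *Nr2f1* mutants against that in *Sox2* mutants for the receptors, the processing proteins and other neuropeptide genes tested in both lines, each point 1 gene, coloured by the line in which its FDR is below 0.01. *Vipr2* lies at -1.44 in the *Sox2* mutants and 0.55 in the *Nr2f1* mutants, *Scg5* is the one gene called in both, and no gene of the right-hand panel is called.

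The 17 genes for proteins that process, bind or degrade peptides were all tested in both lines. In the *Sox2* line 1 rose and 2 fell, where 8.08% of all genes were called, with a median log2 fold change of 0.09, against 0.0005 over all genes. *Pcsk2*, which encodes the prohormone convertase PC2, rose from 43.9 ± 10.2 to 106 ± 8.24 CPM (log2 fold change 1.27 ± 0.15, FDR = 0.000526). *Scg5*, which encodes the PC2 chaperone 7B2, fell from 195 ± 4.76 to 108 ± 15.2 CPM (-0.85 ± 0.10, FDR = 0.000441). *Pcsk5*, another proprotein convertase gene, fell from 19.3 ± 1.62 to 10.6 ± 1.03 CPM (-0.87 ± 0.11, FDR = 0.000819). The calls of these 3 genes were kept under all 14 other settings.

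In the *Nr2f1* line 1 of the 17 rose and 1 fell, by smaller amounts, where 2.54% of all genes were called. The median log2 fold change was 0.16, against 0.01 over all genes. *Pam*, the enzyme that amidates peptide ends, rose from 54.2 ± 1.85 to 69.2 ± 3.66 CPM (log2 fold change 0.35 ± 0.06, FDR = 0.00795), and its difference from the *Sox2* line (-0.22 ± 0.08 there, not called) passed the threshold. *Scg5* fell from 123 ± 1.80 to 102 ± 1.57 CPM (-0.27 ± 0.04, FDR = 0.00633). It also differed between the controls of the lines, which were at 195 and 123 CPM (log2 difference -0.63 ± 0.06, FDR = 0.000583). The calls of *Pam* and *Scg5* were lost when any 1 of the 3 controls, MUT_A or MUT_C was left out or the male-specific covariate was added, and that of *Scg5* also in 1 fit over all libraries, with FDR up to 0.0724 and 0.0597 over all settings. *Cpe*, the carboxypeptidase that trims peptide ends, and *Pcsk1n*, the inhibitor proSAAS, were named for a high CPM in the controls, with log2 fold changes of 0.002 ± 0.07 and -0.10 ± 0.07 in the *Sox2* line and -0.21 ± 0.06 (FDR = 0.0496) and -0.04 ± 0.06 in the *Nr2f1* line.

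Of 43 other neuropeptide genes, 20 passed the filter on low counts in the *Sox2* fit and 19 in the *Nr2f1* fit. EdgeR called 0 in either line, where it called 8.08% and 2.54% of all genes. DESeq2 also called 0, where it called 2468 and 1112 over all genes. At an unadjusted p under 0.05 in edgeR there were 7 and 3, and the share of all genes at that p is not given here. The median log2 fold change of these genes was 0.52 in the *Sox2* mutants, against 0.0005 over all genes tested. In the *Nr2f1* mutants it was 0.07, against 0.01. The genes with the highest control CPM included *Pnoc*, the nociceptin precursor, at 19.3 ± 0.26 CPM in the *Sox2* controls and 18.0 ± 1.61 in the mutants, and *Npy*, at 10.2 ± 1.97 and 12.8 ± 4.62 CPM. *Avp*, the vasopressin precursor, was at 11.0 ± 2.27 CPM in the controls and ranged from 4.74 to 32.7 CPM over the *Sox2* mutants.

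The 5 genes whose pattern was most like that of *Cck* were found by the root mean square difference of their log2 levels from those of *Cck* over the 12 libraries, each centred on its own line's controls, among 15397 genes. They were *Tmem132d*, at 0.33, *Slc6a4*, at 0.45, *Fam163a*, at 0.47, *Nexn*, at 0.47, and *Cpne4*, at 0.49, against a median of 1.44 over all genes compared. *Slc6a4* encodes the serotonin transporter, *Nexn* an actin-binding protein and *Cpne4* a calcium-dependent phospholipid-binding protein. *Tmem132d* went from 42.1 ± 8.60 to 14.3 ± 3.08 CPM in the *Sox2* line and from 54.1 ± 4.79 to 11.6 ± 4.64 in the *Nr2f1* line. *Slc6a4* went from 76.5 ± 5.80 to 28.8 ± 5.21 CPM and from 52.2 ± 17.3 to 14.1 ± 5.29. All 5 were again the nearest over the *Nr2f1* line alone, and 0 of the 5 over the *Sox2* line alone, so the likeness rested on the *Nr2f1* libraries. These genes were picked on the same libraries, and no test was made of them.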

How the data were processed

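The deposited values were estimated counts per gene, made by the authors with STAR and RSEM against the RefSeq transcriptome (mm10 in the labels, version of the aligner not given in the sources used here). They were rounded to whole numbers, since 7.77% of values were not whole. Columns name the line, the group and a library, and were assigned to groups by those names. No row lacked a gene name.

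Each line's 3 mutants were compared with its 3 controls by edgeR 4.0.16 (quasi-likelihood test, R 4.3.3) after its filter on low counts (minimum count 10, minimum total 15) and TMM normalization, with a call at FDR below 0.01. Test and threshold were those of the study, which reported more genes in each line than the 1261 (*Sox2*) and 396 (*Nr2f1*) called here. The reason for this difference was not tested. Levels are CPM after TMM. SE is the size of the log2 fold change divided by the square root of F. The 10 genes and all gene lists were chosen with earlier results of these data known. Named besides the 10 genes were every listed pathway gene called in either line, the 3 highest of each list and the 5 genes most like *Cck* (pseudocount 0.5 CPM). With 3 against 3 libraries an exact permutation test of a single gene cannot go below p = 0.1, so none was used. Nothing shows that pools came from separate litters, so the spread may be partly technical. Every pair of replicate libraries differed by more than sampling noise (chi-square per degree of freedom 10.4 to 37.9). The highest values, 37.9 and 31.5, were those of the pairs with the *Sox2* control CTRL_3. Alternatives were DESeq2 1.42.0, other filters and scaling, 1 fit over all libraries, a covariate for male-specific genes and leaving out each library. The settings of the *Sox2* line also included a replicate block, described at the end. The fits were tested on simulated data. Transcript lengths came from GENCODE M21 (longest transcript, 96.8% of symbols matched). Only the annotated A830012C17Rik overlapped a gene of the set, on the strand opposite to *Penk*, and strand use in counting is not given in the sources used here.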

Additional observations from a re-analysis of the deposited data

Results flagged for a closer look

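For 7 genes named above, the log2 change in the *Sox2* mutants differed from that in the *Nr2f1* mutants in edgeR's interaction test (FDR below 0.01 over 15989 genes). The difference was 0.55 for *Adcyap1r1* (FDR = 0.00186), -1.99 for *Vipr2* (FDR = 0.000459), -0.57 for *Pam* (FDR = 0.00507) and -0.96 for *Pcsk5* (FDR = 0.000667). It was -0.84 for *Sox2* (FDR = 0.00603) and 1.19 for *Nr2f1* (FDR = 0.00742), the genes the lines target, and -1.70 for *Rora* (FDR = 0.000118), which carries the Cre.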

How the results depend on the processing

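No log2 fold change of a called gene reversed under any alternative. Peptide genes called in the *Sox2* mutants, 3 as reported, came to 5 in DESeq2, 6 at FDR below 0.05 and 1 with the male-specific covariate, and ranged from 1 to 4 with 1 library left out. Receptors, 3, came to 6 without a filter on low counts, 7 in DESeq2, 7 at FDR below 0.05 and 5 in 1 fit over all libraries (1 to 5 with 1 library left out). Processing genes, 3, came to 5 in DESeq2 and 7 at FDR below 0.05, and other neuropeptide genes, 0, to 1 at FDR below 0.05 (*Sst*) and 0 to 1 with 1 library left out (*Avp* without MUT_3). In the *Nr2f1* mutants peptide genes, 1, came to 2 without a filter, 3 in DESeq2, 3 at FDR below 0.05 and 2 in 1 fit (1 to 4 with 1 library left out, the 4 without MUT_B being *Cck*, *Penk*, *Tac1* and *Gal*). Receptors, 0, came to 1 without a filter, 2 in DESeq2, 2 at FDR below 0.05 and 1 in 1 fit (0 to 2), processing genes, 2, to 1 in 1 fit and 0 with the covariate (0 to 2), and other neuropeptide genes, 0, to 1 at FDR below 0.05 (*Edn3*; 0 to 2). The difference between the lines, 0, came to 1 in DESeq2 and 2 at FDR below 0.05 (0 to 1). With mean transcript length the share of *Cck* was 91.8% in the *Sox2* and 91.5% in the *Nr2f1* controls. Calls over all genes moved with the settings too. For the *Sox2* mutants they were 1261 as reported, 1525 without a filter, 2468 in DESeq2, 3095 at FDR below 0.05, 2075 in 1 fit and 864 with the covariate. For the *Nr2f1* mutants they were, in the same order, 396, 581, 1112, 1154, 430 and 84. With 1 library left out they ranged from 494 to 2161 (*Sox2*) and from 133 to 868 (*Nr2f1*). The highest counts came without CTRL_3 (*Sox2*) and without MUT_B (*Nr2f1*). Nothing is read from the counts of the lists, and the causes of these shifts were not tested.

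For the *Nr2f1* line no paired analysis was possible because its groups share 1 library letter only. The *Sox2* columns share the numbers 1 and 3 between groups, and no source calls this a pairing. With a replicate block on these numbers, 4 peptide genes, 6 receptors and 3 other neuropeptide genes were called in the *Sox2* line. In that fit CTRL_2 and MUT_4 each stood alone in a block. The change therefore rested on CTRL_1 with MUT_1 and CTRL_3 with MUT_3, with little left to estimate the spread, and nothing is read from its calls. Over all genes the block gave 1611 calls, against 1261 without it. The deviations of CTRL_1 and MUT_1 correlated at 0.23 over genes and those of CTRL_3 and MUT_3 at 0.22, and CTRL_2 with MUT_1 at 0.27. Genes with under 20 reads a library, such as *Vip*, were beyond the depth of these libraries.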
